A study of Mus musculus with 4 samples.

Results

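Macrophages exposed to interferon-γ (IFN-γ) and lipopolysaccharide (LPS), called M1, were compared with macrophages exposed to interleukin-4 (IL-4), called M2. Both cultures were bone marrow-derived macrophages (BMDMs) from 10-week-old C57BL/6J mice labelled wild type, grown for 6 days in medium with L929 cell supernatant, a source of macrophage colony-stimulating factor. The M1 culture then received 20 ng/ml of IFN-γ and 100 ng/ml of LPS, and the M2 culture 50 ng/ml of IL-4, each for 2 days. RNA of each culture was hybridized to 1 Agilent single-colour array with 55681 non-control probes, so that 2 of the 4 arrays in the series enter the comparison. The study used purchased C57BL/6J mice as well as Lamtor1 flox/flox littermates without Cre as controls, and the sources used here do not settle which of them gave these cultures. Neither culture was repeated and unstimulated BMDMs were not among the arrays. No test was therefore possible, every ratio is that of M1 to M2 and not of a stimulated to a resting cell, and less RNA per cell could not be told apart from fewer cells of a kind.

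Of 23131 genes named on the array, 13257 were well above background on both arrays and are described by their ratio. A further 1160 genes were well above background on M1 only and 1374 on M2 only. These are described by a bound, written as "at least", that sets the measured signal against the lowest signal called well above background on the dimmer array, or against the gene's own signal there where that was higher. The other 7340 genes were above background on neither array and are given no ratio. Signals are given as normalized signal, which is the processed intensity of a gene's brightest probe over the 4 arrays divided by the 75th percentile of all probes on that array. In these units, the lowest signal well above background was 0.0656 on M1 and 0.0364 on M2. Values of different genes come from different probes and are not comparable with each other. Where a gene is named below as 2-fold apart and another of its probes on both arrays turned the direction or was under 2-fold, its log2 ratio is given.

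The scaling of the arrays matters for every count below. The 75th percentile was 287 on M1 and 595 on M2, whereas the medians were 25.7 and 30.1, although similar numbers of probes were well above background (29223 and 28807). Dividing by the median in place of the 75th percentile lowered the log2 ratio of every gene by 0.82, or 1.77-fold. Ratios are those of the 75th percentile shift unless the median shift is named. Repeated spots of the same probe on an array gave a technical SD of 0.10 for a log2 ratio, which does not include the variation between cultures.

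IFN-γ acts through JAK kinases on STAT dimers that bind the GAS motif, and LPS acts through Toll-like receptor 4 on NF-κB and on IRF3, which induces type I interferon. Type I interferon in turn forms a complex with STAT2 and IRF9 that binds the interferon-stimulated response element (ISRE). IL-4 acts through its receptor on STAT6, which prefers a GAS-like motif with 1 more base in its centre. M1 macrophages are known for microbicidal nitric oxide and inflammatory cytokines, and M2 macrophages for chitinase-like proteins, lectin receptors and a metabolism that relies on fatty acid oxidation.

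The labelled cell type was checked first. All but 1 of 20 macrophage identity genes were well above background on both arrays. At least 2-fold, 3 of these were higher in M1 and 6 in M2 (3 and 11 after the median shift), and the median log2 ratio was −0.34 (−1.16 after the median shift). Csf1r, the receptor for macrophage colony-stimulating factor, had a normalized signal of 206 on M1 and 485 on M2. Adgre1, which encodes F4/80, gave 54.4 and 112, and Cd68 72.1 and 49.0. Mertk, a receptor for apoptotic cells, gave 6.59 and 4.92, and Spi1, the myeloid transcription factor PU.1, gave 6.95 and 4.20. Cx3cr1 was measured above background on M2 only. Of markers of other cells, those above background on neither array were 5 of 9 for T and NK cells (among them Cd3d, Cd3g and Cd8a), 2 of 6 for B cells, 2 of 10 for neutrophils, 3 of 6 for dendritic cells, 4 of 8 for eosinophils, basophils and mast cells, and 0 of 8 for fibroblasts. The others were above background on at least 1 array, and their values are given with the results they touch and near the end.

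Sequences upstream of the transcription start are shown for 4 genes higher in M1 and 3 higher in M2, because their genes are among the members described below and the motifs of the factors named above can be read in them. The sequences are from RefSeq on GRCm38.p6. Each run covers 250 bases before the start, and capitals mark the matches to GAS (TTC and GAA with any 3 bases between them), N4 GAS (TTC and GAA with any 4 bases between), ISRE (GAAA and GAAA with any 2 bases between) and the kappaB motif by its common consensus, searched on both strands, with overlapping matches allowed.
Isg15, chr4:156200819-156201068, minus strand: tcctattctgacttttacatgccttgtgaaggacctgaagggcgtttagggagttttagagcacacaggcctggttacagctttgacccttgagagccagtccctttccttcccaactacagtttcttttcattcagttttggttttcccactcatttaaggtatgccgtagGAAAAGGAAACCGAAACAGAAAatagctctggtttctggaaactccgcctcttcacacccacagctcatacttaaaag
Cxcl10, chr5:92348890-92349139, minus strand: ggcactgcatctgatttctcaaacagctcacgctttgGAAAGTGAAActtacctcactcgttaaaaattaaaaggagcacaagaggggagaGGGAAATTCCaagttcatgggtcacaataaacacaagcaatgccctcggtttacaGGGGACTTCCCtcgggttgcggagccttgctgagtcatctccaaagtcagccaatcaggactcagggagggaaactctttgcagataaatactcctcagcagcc
Gbp5, chr3:142496684-142496933, plus strand: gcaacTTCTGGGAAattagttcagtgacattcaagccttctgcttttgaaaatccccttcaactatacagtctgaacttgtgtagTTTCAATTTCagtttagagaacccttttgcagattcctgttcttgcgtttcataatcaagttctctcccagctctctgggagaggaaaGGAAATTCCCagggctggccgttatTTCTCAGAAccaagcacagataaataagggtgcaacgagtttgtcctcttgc
Socs3, chr11:117969367-117969616, minus strand: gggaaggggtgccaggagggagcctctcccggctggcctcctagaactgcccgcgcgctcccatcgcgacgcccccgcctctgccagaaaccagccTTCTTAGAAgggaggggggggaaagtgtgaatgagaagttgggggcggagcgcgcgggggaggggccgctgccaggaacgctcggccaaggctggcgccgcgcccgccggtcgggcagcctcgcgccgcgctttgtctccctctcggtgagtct
Retnla, chr16:48842359-48842608, plus strand: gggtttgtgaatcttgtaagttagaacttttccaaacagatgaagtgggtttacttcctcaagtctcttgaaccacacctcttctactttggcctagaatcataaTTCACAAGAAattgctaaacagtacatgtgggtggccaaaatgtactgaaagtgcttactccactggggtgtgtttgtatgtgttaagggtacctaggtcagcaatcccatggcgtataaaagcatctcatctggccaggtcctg
Pdcd1lg2, chr19:29410669-29410918, plus strand: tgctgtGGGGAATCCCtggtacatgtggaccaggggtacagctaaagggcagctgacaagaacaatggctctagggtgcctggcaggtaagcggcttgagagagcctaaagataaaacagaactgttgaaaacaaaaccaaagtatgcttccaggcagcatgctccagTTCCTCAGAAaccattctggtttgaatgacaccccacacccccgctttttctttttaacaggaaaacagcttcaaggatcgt
Itgax, chr7:128129300-128129549, plus strand: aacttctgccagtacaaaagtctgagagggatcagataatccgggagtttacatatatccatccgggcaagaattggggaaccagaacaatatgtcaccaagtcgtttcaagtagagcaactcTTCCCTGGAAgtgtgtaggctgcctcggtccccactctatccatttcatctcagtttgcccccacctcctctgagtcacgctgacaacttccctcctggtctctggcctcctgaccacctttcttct
In Isg15, 3 overlapping ISRE matches ran from 78 to 57 bases before the start. Cxcl10 held 1 ISRE match at 213 bases and kappaB matches at 159 and, overlapping, at 104 and 103 bases. Gbp5 held 2 GAS matches, 1 ISRE and 1 kappaB match, and Socs3 held 1 GAS match at 154 bases. Retnla, Pdcd1lg2 and Itgax each held 1 N4 GAS match, at 145, 82 and 127 bases before the start, and Pdcd1lg2 also held a kappaB match. A match describes the letters of the window and does not show that a factor binds there.

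ISRE matches were more frequent with the size of the M1 ratio. An ISRE stood in 2.98% of all 32851 promoters in the table and in 2.50% of those of genes less than 2-fold apart under both shifts. The share was 6.39% of 1331 promoters of genes at least 2-fold higher in M1 under both shifts, and 15.8% (24 of 152) where they were at least 16-fold higher. For genes at least 16-fold higher in M2 it was 1.80% (4 of 222). GAS matches stood in 7.02% of all promoters, 11.2% of those at least 16-fold higher in M1 and 3.60% of those at least 16-fold higher in M2. The N4 GAS was found in 5.85%, 6.58% and 7.21%, respectively, and in 4.79% of the 12740 promoters of genes on both arrays. The kappaB motif was found in 7.25% of all promoters, in 8.76% of those of genes on both arrays, in 16 of the 152 and in 9.46% of the 222. Not all genes had a promoter in the table and some had several, so that the 152 promoters were those of 123 of 165 genes and the 222 those of 168 of 223. Within the lists described below, 7 of 13 promoters of IFN-γ-induced GTPases held an ISRE and 6 a GAS match, 10 of 31 promoters of type I interferon-response genes held an ISRE, 11 of 22 promoters of NF-κB members and inhibitors held a kappaB match, and 4 of 29 promoters of IL-4-induced genes held an N4 GAS match and 0 an ISRE. These promoters belonged to 10 of 16 GTPase genes and 20 of 31 IL-4-induced genes. Matches did not follow the side of a list throughout, since the N4 GAS also stood in 5 of 31 promoters of type I interferon-response genes and 5 of 19 of inflammasome genes, and the kappaB motif in 1 of 22 promoters of inflammatory M1 genes.

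**Figure D1:**
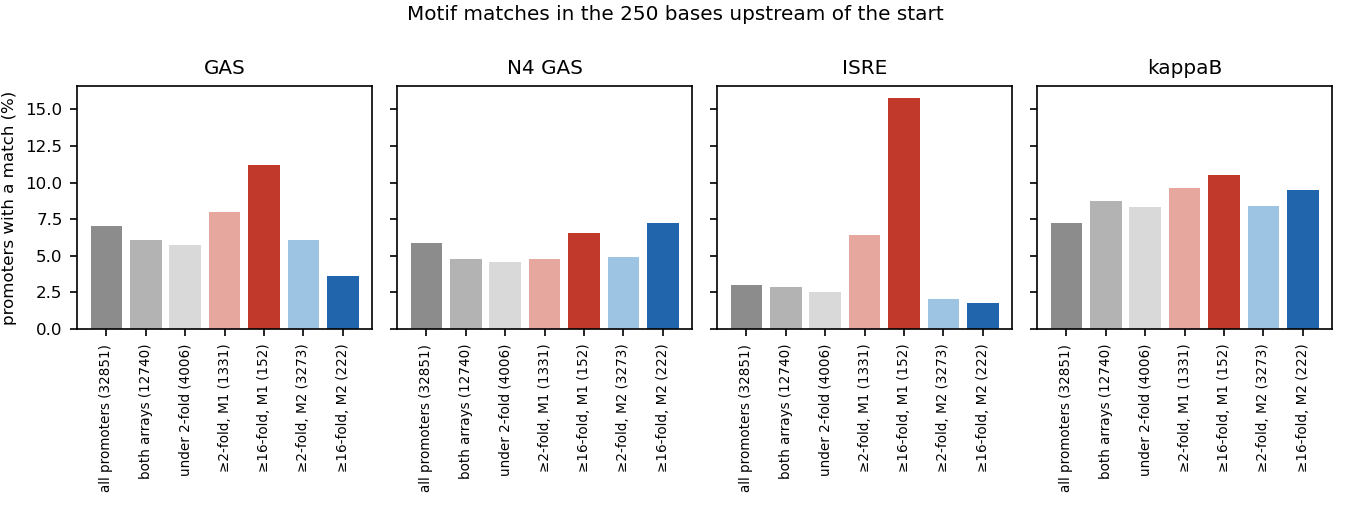
Share of promoters (percent, vertical axis) with at least 1 match to each motif in the 250 bases before the start, for all promoters and for groups of genes by their ratio under both shifts, with the number of promoters in parentheses. The ISRE bar of genes at least 16-fold higher in M1 stands at 15.8%, against 2.98% for all promoters.

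Across the genes well above background on both arrays, 3321 (25.1%) were at least 2-fold higher in M1 and 3356 (25.3%) at least 2-fold higher in M2. After the median shift the same counts were 1461 (11.0%) and 5746 (43.3%), so that the share of genes 2-fold apart that were higher in M1 went from 49.7% to 20.3%. The median log2 ratio over these genes was 0.09 and −0.74 under the respective shifts, and list medians below are to be read against these values, as the counts of list members are against the shares of all genes just given. Under both shifts, 1461 genes were at least 2-fold higher in M1 and 3356 in M2. Large ratios were reached on both sides, since 264 genes were at least 16-fold higher in M1 and 223 in M2, and 37 and 19 genes were at least 128-fold higher. After the median shift these counts were 165 and 527, and 23 and 33, so that the balance turned. Of the genes above background on 1 array only, the bound was 2-fold or more for 1121 of 1160 on M1 (96.6%) and 652 of 1374 on M2 (47.5%), and with the median shift for 528 (45.5%) and 949 (69.1%). These bounds are set by the lowest signal well above background on the other array, which lies higher on M1 in normalized units.

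**Figure D2:**
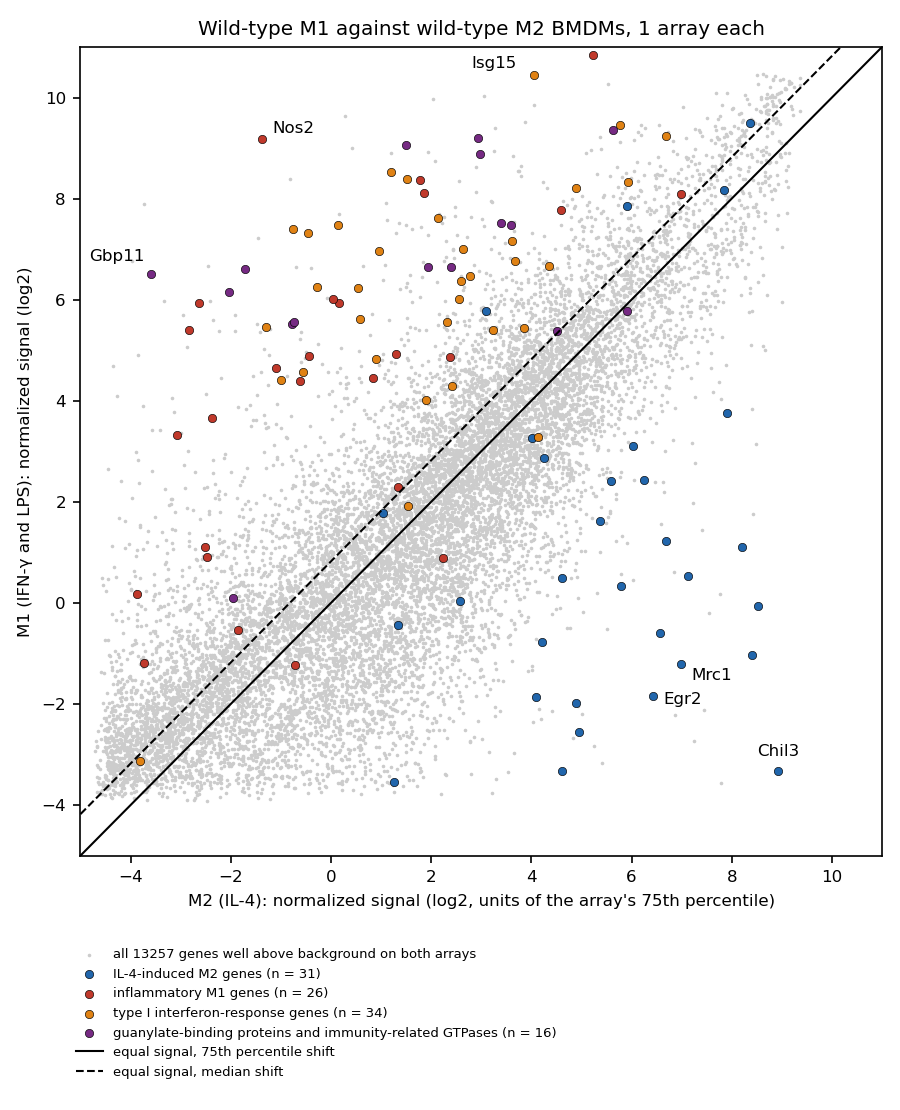
Normalized signal on M1 (vertical) against M2 (horizontal), both log2, for the 13257 genes well above background on both arrays (grey) and 4 gene lists (coloured). The solid and dashed lines mark equal signal under the 75th percentile and the median shift. Most IL-4-induced genes lie far below both lines, with Chil3 farthest from them, and most interferon-response genes and GTPases far above both.

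IL-4-induced genes had the lowest median ratio of the gene lists described here. Of 37 listed genes, 31 were well above background on both arrays, and 25 of these were at least 2-fold higher in M2, 26 after the median shift. Their median log2 ratio was −4.80, and −5.62 after the median shift. Chil3, the chitinase-like secreted protein Ym1 (probe at chr3:105950485-105950544 of mm9), had a normalized signal of 0.0998 on M1 and 488 on M2, a 4887-fold difference. Retnla, the secreted protein RELMα (probe at chr16:48844447-48844506), gave 672 on M2 and was not well above background on M1, so that it was at least 10250-fold higher. Both genes were thus near or under the background level in M1 BMDMs.

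Other members of the response showed the same order. Mrc1, the mannose receptor, had a normalized signal of 0.435 on M1 and 126 on M2 (290-fold). Egr2, a transcription factor induced by IL-4, gave 0.279 and 85.6 (306-fold). Itgax, the integrin CD11c, gave 2.17 and 296 (137-fold). These 3 genes differed more than Ccl24, a chemokine for eosinophils, at 0.276 and 17.1 (61.8-fold), or Pdcd1lg2, the PD-1 ligand PD-L2, at 0.585 and 18.6 (31.7-fold). Fn1, fibronectin, gave 1.45 and 139 (96.0-fold), and Dcstamp, which is needed for macrophage fusion, gave 0.0999 and 24.6 (246-fold). Chil4 and Ccl17 were well above background on M2 only, at least 203-fold and 22.6-fold higher. Against the direction of the list, Klf4, Tgm2 and Mgl2 were higher in M1, with log2 ratios of 2.70, 1.95 and 1.13, and Mgl2 fell under 2-fold after the median shift. Ccl22 and Alox15 were above background on neither array.

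Inflammatory genes were mostly higher in M1. Of 35 listed, 26 were well above background on both arrays, 23 were at least 2-fold higher in M1 (21 after the median shift), and 1, the costimulatory ligand Cd80, was higher in M2, although the log2 ratio of its other probe was 0.58. The median log2 ratio was 4.53 (3.71 after the median shift). Nos2, the inducible nitric oxide synthase, had a normalized signal of 581 on M1 and 0.384 on M2, 1514-fold apart (probe at chr11:78773567-78773626 of mm9). Tnf, the cytokine TNF-α, gave 61.3 and 1.12 (54.7-fold), and Il1b, interleukin-1β, 1.13 and 0.0679 (16.7-fold). Il6 was above background on M1 only, at least 48.0-fold higher. Il12b, which encodes the p40 subunit of IL-12, was above background on neither array, and neither were Il12a, Il23a, Csf2, Csf3 and Lif. The cytokine genes of the list thus ranged from high ratios to no signal above background on these probes after 2 days. The study measured the p40 transcript in M1 cultures by real-time PCR, and the Il12b probe was not compared with that assay.

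Receptors and effectors of the M1 list were also higher in M1. Fpr2 and Fpr1, receptors for formylated bacterial peptides, were 378-fold and 84.1-fold higher in M1, with signals of 61.3 against 0.162 and 10.0 against 0.119. Ptgs2, the inducible cyclooxygenase COX-2, gave 42.1 and 0.140 (301-fold). Cd86, a ligand for CD28 on T cells, gave 64.3 and 1.03 (62.7-fold), Cd38, an enzyme that consumes NAD, 12.7 and 0.192 (65.8-fold), and Cd40 30.3 and 2.45 (12.4-fold). Lcn2, which binds bacterial iron carriers, gave 329 and 3.44 (95.7-fold), and Acod1, which makes itaconate, 275 and 3.65 (75.5-fold). Slc7a11, the cystine importer, was above background on M2 only.

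Regulatory cytokines and their receptors were divided between the arrays. Of 18 members above background on both, 6 were at least 2-fold higher in M1 and 5 in M2 (6 and 7 after the median shift), and the median log2 ratio of 0.42 turned to −0.40 under that shift. Il10, an anti-inflammatory cytokine often named with M2 cells, was 27.1-fold higher in M1 (3.69 and 0.136). Il1rn, the IL-1 receptor antagonist, was 156-fold higher in M1 (41.5 and 0.267), Il18bp, which binds IL-18, 55.7-fold, and Cd274, the PD-1 ligand PD-L1, 50.4-fold (736 and 14.6). PD-L1 and PD-L2 transcripts thus lay on opposite sides. Il1r2, the decoy receptor for IL-1, was above background on M1 only, at least 64.1-fold higher. Tgfb1, Tgfbi, Tnfrsf1b and Igf1 were at least 2-fold higher in M2 along with Pdcd1lg2.

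Interferon-response genes were almost all higher in M1. Of 34 type I interferon-response genes well above background on both arrays, 31 were at least 2-fold higher in M1, against a background of 25.1%, and none was 2-fold higher in M2. The median log2 ratio was 3.74. After the median shift 30 were higher in M1 and 1, Samd9l, was higher in M2. Ifit1, which binds foreign RNA caps, had a normalized signal of 169 on M1 and 0.591 on M2 (286-fold). Isg15, a ubiquitin-like modifier, gave 1402 and 16.7 (84.1-fold), Isg20, an exonuclease, 370 and 2.29 (162-fold), and Mx1, an antiviral GTPase, 76.6 and 0.820 (93.4-fold). Ifnb1, the gene of interferon-β itself, gave 41.8 on M1 and was not above background on M2, so that it was at least 1149-fold higher. Members under 2-fold were Oas1g, Eif2ak2 and Samd9l.

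The GTPases that IFN-γ induces, which attack the vacuoles of intracellular pathogens, had the highest median ratio of the gene lists described here. Of 16 guanylate-binding proteins, immunity-related GTPases and their regulators on both arrays, 14 were at least 2-fold higher in M1 under both shifts, with a median log2 ratio of 5.31 (4.49 after the median shift). Gbp11 had a normalized signal of 91.4 on M1 and 0.0832 on M2 (1099-fold). Gbp6 gave 98.0 and 0.305 (321-fold), Gbp5, which promotes inflammasome assembly, 71.1 and 0.244 (292-fold), and Tgtp2 535 and 2.82 (190-fold). Gbp4 and Gbp8 were above background on M1 only, at least 629-fold and 434-fold higher, and so was Tgtp1. The exceptions were Gvin1 and the transcription factor gene Irf8, both under 2-fold. Genes of these families are near-identical copies, so that their probes can share targets.

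**Figure D3:**
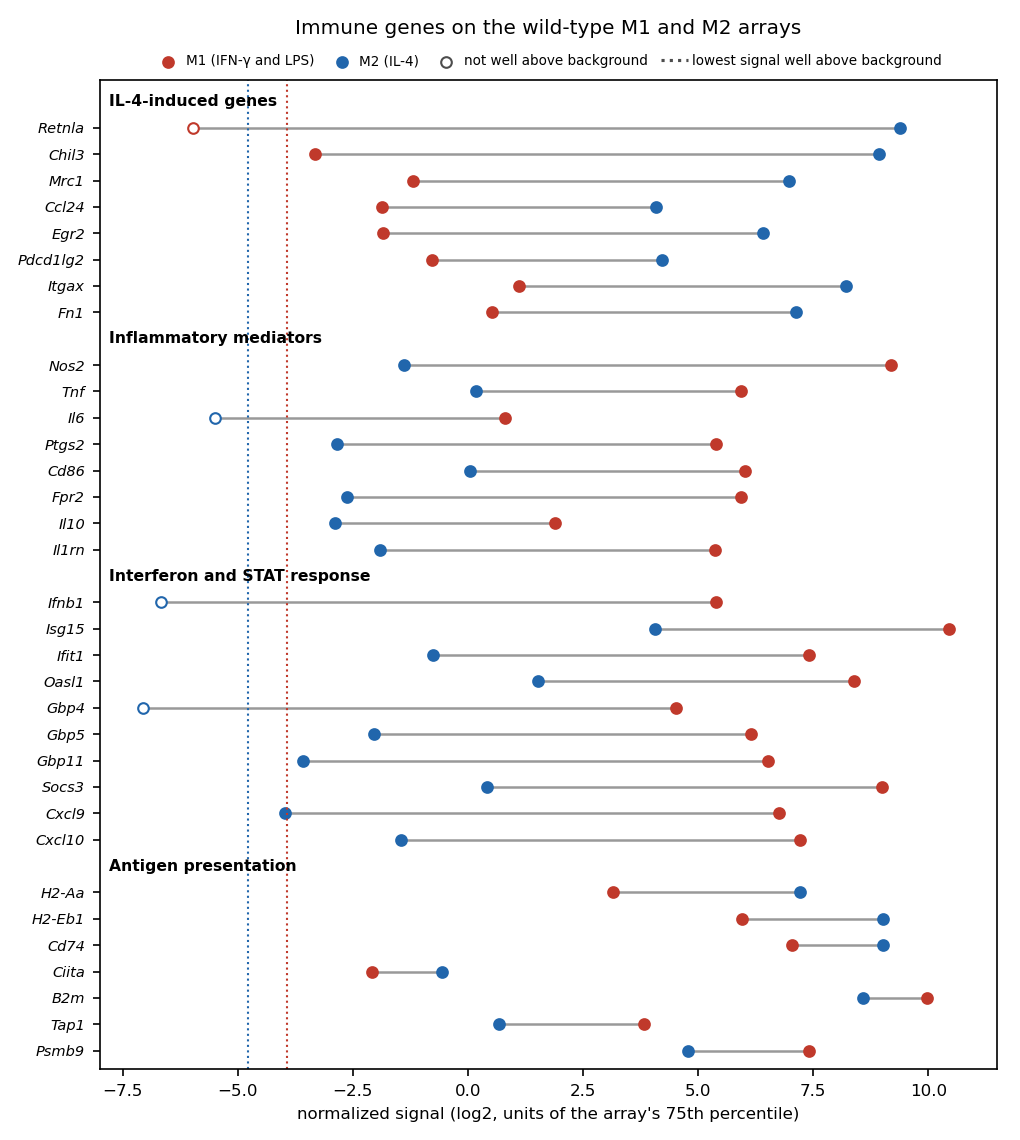
Normalized signal (log2, horizontal) of immune genes on the M1 array (red) and the M2 array (blue), 1 array each. Open circles are not well above background, and dotted lines mark the lowest signal well above background on each array. Retnla on M1 and Il6, Ifnb1 and Gbp4 on M2 are open, and the MHC class II genes run opposite to B2m, Tap1 and Psmb9.

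Inflammatory chemokines measured on both arrays were mostly higher in M1. Of these 16, 11 were at least 2-fold higher in M1 and 5 in M2, with a median log2 ratio of 3.12 (2.30 after the median shift). Cxcl9 and Cxcl10, ligands of CXCR3 on T cells, were 1689-fold and 405-fold higher in M1, with signals of 108 against 0.0642 and 148 against 0.367. Ccl2, which draws monocytes, gave 918 and 16.6 (55.3-fold), and Ccl5 1226 and 46.0 (26.6-fold). Ccl12, Ccl7, Ccl3 and Ccl4 were 48.2-fold, 25.0-fold, 24.4-fold and 20.0-fold higher in M1. The 5 genes higher in M2 were Ccl6, Ccl9, Cxcl14, Cxcl16 and Pf4. Another 4, Cxcl1, Cxcl5, Cx3cl1 and Ppbp, were above background on M2 only, and Cxcl2 and Cxcl3 on M1 only. Among chemokine receptors, Ccr2, which responds to Ccl2, was 9.39-fold higher in M2 (0.240 and 2.26), as were Ccr3 (4.09-fold) and the complement receptor C5ar1 (4.92-fold), whereas Ccrl2 was 14.0-fold higher in M1. In all, 5 of 11 chemokine receptor genes were at least 2-fold higher in M2 and 3 in M1 (5 and 2 after the median shift). The shares of all genes were 25.3% and 25.1% (43.3% and 11.0%). The median log2 ratio of these receptor genes, −0.08, became −0.90 after the median shift, against 0.09 and −0.74 for all genes. Cxcr4 differed by a log2 ratio of −0.08 and Ccr7, the receptor of lymph node homing, by 0.91.

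Antigen presentation genes of class I and class II mostly lay on different sides, with exceptions in both. Of 13 MHC class II presentation genes on both arrays, 7 were at least 2-fold higher in M2 and 3 in M1, and the median log2 ratio was −1.12 (−1.94 after the median shift). H2-Aa and H2-Eb1, the α and β chains of class II molecules, gave 8.93 and 148 (16.6-fold) and 62.1 and 514 (8.28-fold). Cd74, the invariant chain, gave 131 and 514 (3.92-fold), and Ciita, the class II transactivator, 0.236 and 0.676 (2.86-fold). All 4 were higher in M2. On the M1 side were H2-Oa and H2-Ob, the subunits of the DM inhibitor H2-O, at 47.7-fold and 5.78-fold, and Rfxank. Of 22 class I and immunoproteasome genes, 16 were at least 2-fold higher in M1 and 2 in M2, with a median of 1.61. After the median shift these counts were 9 and 4 and the median 0.79. Tap1, of the peptide transporter, gave 14.2 and 1.59 (8.91-fold), Psmb9, an immunoproteasome subunit, 169 and 27.5 (6.13-fold), Nlrc5, the class I transactivator, 31.9 and 3.17 (10.1-fold), and B2m 1001 and 383 (2.61-fold). H2-M2 and the chaperone gene Calr were the 2 higher in M2. Costimulatory and checkpoint ligands were mostly on the M1 side, 13 of 18 against 2, with Slamf1, Cd200 and Tnfsf9 at 115-fold, 99.1-fold and 70.2-fold.

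Signalling components of the IL-4 receptor and STAT list took no common side, with 10 of 25 at least 2-fold higher in M1 and 7 in M2 (8 and 10 after the median shift). Its median log2 ratio of 0.73 became −0.09. Stat6 itself had a normalized signal of 18.0 on M1 and 14.1 on M2, and Il4ra, the IL-4 receptor chain, 3.42 and 2.05. The direction of these probes depended on the shift, with log2 ratios of 0.35 and 0.74 that became −0.47 and −0.08, whereas other probes reached 1.38 for Stat6 and 1.68 for Il4ra. Stat2 and Stat3 were 11.7-fold and 5.22-fold higher in M1. The feedback inhibitors of cytokine receptors were divided, since Socs3, which limits gp130 receptors, was 385-fold higher in M1 (513 and 1.33) and Socs1 3.97-fold, whereas Socs2 was 27.9-fold higher in M2 (0.0853 and 2.38). Irs1, an adaptor of the IL-4 receptor, was above background on M2 only, at least 5.55-fold higher.

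Among Toll-like receptors, some were lower in M1. Tlr4, the receptor for LPS, gave 1.72 on M1 and 12.5 on M2 and was thus 7.26-fold lower in M1. Tlr8, Tlr2 and Tlr1 were 13.2-fold, 7.01-fold and 5.45-fold lower in M1. In all, 8 of 21 receptor and adaptor genes were at least 2-fold higher in M2 and 5 in M1, among them Irak2 (5.32-fold). The median of 0.07 was close to that of all genes and became −0.75 after the median shift, when 8 and 2 genes passed 2-fold, against 43.3% and 11.0% of all genes. Of 22 NF-κB members and inhibitors, 14 were at least 2-fold higher in M1 and none in M2, and after the median shift 10 and 3. Nfkbia, which encodes IκBα, gave 264 and 32.3 (8.15-fold), Tnfaip3, the deubiquitinase A20, 52.2 and 4.44 (11.8-fold), Nfkbiz 18.7-fold and the phosphatase Dusp1 28.6-fold more in M1. Nfkb1 itself had a log2 ratio of −0.76. Among inflammasome genes 12 of 18 were at least 2-fold higher in M1 (7 after the median shift), with Casp4, the sensor of intracellular LPS (caspase-11), at 244 and 9.33 (26.2-fold), and 1, Nlrp1b, was 13.6-fold higher in M2.

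Genes of arginine, polyamine and biopterin metabolism were divided between the arrays. Gch1, which starts the synthesis of tetrahydrobiopterin, the Nos2 cofactor, gave 114 on M1 and 11.9 on M2 (9.60-fold), and Ass1, which recycles citrulline to arginine, 9.42 and 3.09 (3.05-fold). Qdpr, which regenerates tetrahydrobiopterin, was 37.0-fold higher in M2 (1.49 and 55.2). On the polyamine route, Odc1 was 3.71-fold higher in M1 and Srm, the spermidine synthase, 29.5-fold higher in M2. Gatm, which starts creatine synthesis from arginine, gave 0.157 and 28.6 (182-fold higher in M2), and Slc7a2, an arginine transporter, 0.742 and 2.54 (3.42-fold). In all, 8 of 27 genes were at least 2-fold higher in M1 and 10 in M2 (6 and 13 after the median shift). The list median of 0.33 became −0.49 after the median shift and −0.12 under quantile normalization.

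Glycolysis and hypoxia-response genes leaned to M1. Of 36 on both arrays, 23 were at least 2-fold higher in M1 and 5 in M2. The median log2 ratio was 1.27, and 0.45 after the median shift, when 13 and 8 genes passed 2-fold. Slc2a1, the glucose transporter GLUT1, gave 160 on M1 and 16.1 on M2 (9.90-fold), and Pfkfb3, which makes the activator of phosphofructokinase, 228 and 5.55 (41.1-fold). Hif1a gave 29.1 and 5.54 (5.25-fold), Egln3, a hydroxylase that responds to hypoxia, 17.2 and 0.0518 (331-fold), and Vegfa 127 and 5.38 (23.7-fold). Slc16a3, the lactate exporter MCT4, was 11.9-fold higher. Core enzymes varied. Hk2 at 2.77-fold, Gapdh at 2.60-fold and Ldha at 2.20-fold were under 2-fold after the median shift, whereas Tpi1, Hk3 and Pfkl had log2 ratios of 3.19, 2.51 and 2.23 that became 2.37, 1.69 and 1.41. The 5 genes higher in M2 were Pfkfb1, Pfkfb4, Pdk1, Car9 and Shpk, a sedoheptulose kinase also known as Carkl (0.116 and 0.449, 3.88-fold). Among pentose phosphate and NADPH oxidase genes, 5 of 16 were at least 2-fold higher in M2, among them Pgls (6.08-fold), Tkt (4.41-fold), Shpk and Pgd (2.98-fold), and 1, Rac2, was higher in M1 (3.16-fold). After the median shift these counts were 12 and 0.

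The list of tricarboxylic acid (TCA) cycle and itaconate genes had a median on the M2 side. Of 34 on both arrays, 18 were at least 2-fold higher in M2, and 2, Acod1 and Ogdh, in M1, whereas 14 were under 2-fold. Ogdh had 3 probes with log2 ratios from −0.96 to 1.57. The median log2 ratio was −1.13 (−1.95 after the median shift). The isocitrate dehydrogenase genes differed most, with Idh3a at 0.398 on M1 and 16.2 on M2 (40.8-fold), Idh1 at 0.631 and 8.96 (14.2-fold), and Idh2 at 3.37 and 34.0 (10.1-fold). Glul, glutamine synthetase, gave 1.35 and 16.8 (12.5-fold). Sdha was 2.42-fold higher in M2, and Sdhb, another subunit of succinate dehydrogenase, had a log2 ratio of −0.03. Subunits of oxidative phosphorylation depended on the scaling. Of 72 on both arrays, 14 were at least 2-fold higher in M2 and 2, Cycs and Uqcrq, in M1, with a median of −0.21. Other probes of Cycs and Uqcrq had log2 ratios of 0.72 and 0.82. The share higher in M2 was thus no larger than the 25.3% of all genes. After the median shift 38 were higher in M2 and 1 in M1, with a median of −1.03. The largest M2 ratios were those of Atp5a1 (3.45-fold) and Atp5g1 (3.38-fold).

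Mitochondrial fatty acid oxidation genes were further to the M2 side. Of 29, 18 were at least 2-fold higher in M2 and 1, Acsl1, in M1, and the median log2 ratio was −1.56 (−2.38 after the median shift). Cpt1a, which admits fatty acids to mitochondria, gave 2.02 and 20.6 (10.2-fold). The enzymes of the β-oxidation steps Hadh, Acads, Decr1 and Acaa2 were 30.4-fold, 12.3-fold, 12.1-fold and 9.21-fold higher in M2. Lipid uptake followed in part. Pparg, a nuclear receptor for fatty acids, gave 8.62 and 65.0 (7.54-fold), Lpl, which frees fatty acids from lipoproteins, 3.41 and 345 (101-fold), and Cd36, the fatty acid and oxidized lipoprotein receptor, 4.60 and 99.8 (21.7-fold). Fabp4 had a log2 ratio of −0.71, and Ppard and Rxra were 4.14-fold and 20.8-fold higher in M1, although the other probe of Rxra had a log2 ratio of −0.37. The PPARγ and lipid uptake list held 6 genes at least 2-fold higher in M2 and 5 in M1 of 21, and its median of 0.21 became −0.61 after the median shift.

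More sterol synthesis genes were higher in M2 than in M1. Of 28 cholesterol and fatty acid synthesis genes on both arrays, 15 were at least 2-fold higher in M2 and 1, Acat2, in M1, with a median of −1.17 (−1.99 after the median shift). Idi1, Dhcr7 and Sqle, enzymes of the cholesterol pathway, were 38.7-fold, 16.4-fold and 5.15-fold higher in M2. Cyp51, Fasn and Scd1 were above background on M2 only. The liver X receptor (LXR) list had 6 genes at least 2-fold higher in M1 and 4 in M2 of 22 (4 and 5 after the median shift). Its median log2 ratio of 0.51 became −0.31 after the median shift. Abca1, which exports cholesterol, gave 5.89 and 12.7 (2.15-fold higher in M2), and Abcg1 97.0 and 92.0, a direction that turned under the median shift. Oxysterol enzymes went opposite ways, with Ch25h, which makes 25-hydroxycholesterol, 8.57-fold higher in M1 (9.81 and 1.14), and Cyp27a1, which makes 27-hydroxycholesterol, at least 20.6-fold higher in M2.

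**Figure D4:**
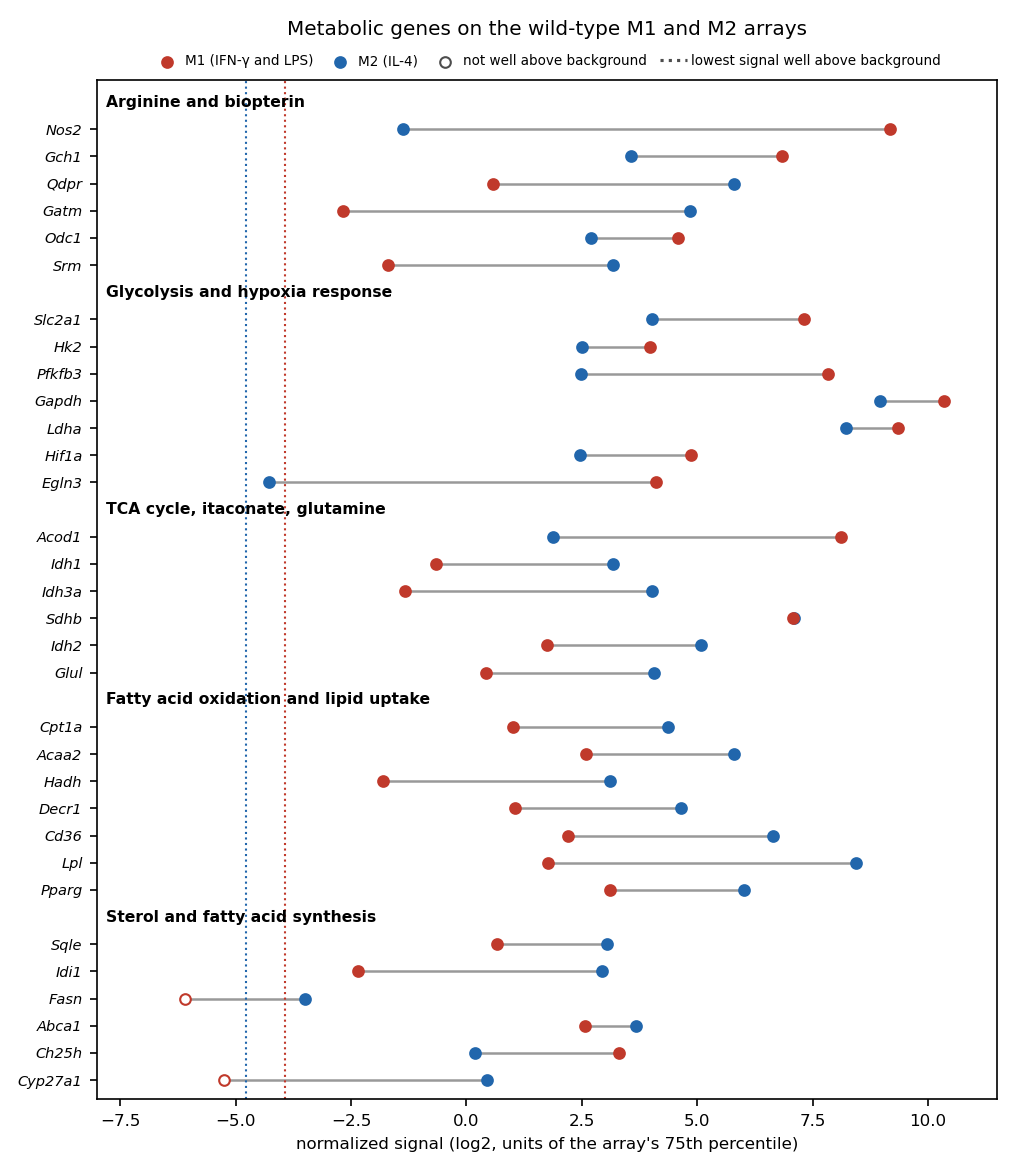
Normalized signal (log2, horizontal) of metabolic genes on the M1 array (red) and the M2 array (blue), 1 array each, with open circles and dotted lines for background as in the plot of immune genes. Most glycolysis genes have M1 to the right, and most TCA cycle, fatty acid oxidation and sterol genes have M2 to the right, with Acod1 and Ch25h as the exceptions shown.

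Of 25 scavenger and apoptotic cell receptors, 11 were at least 2-fold higher in M2, 2 in M1 and 12 in neither (14 in M2 and 2 in M1 after the median shift), with a median of −0.31. Stab2 was 73.0-fold higher in M2 (0.0951 and 6.94) and Dock1, which acts in engulfment, 34.7-fold. The 2 higher in M1 were Marco, a receptor for bacteria (20.9 and 0.648, 32.2-fold), and Cd300lf (333 and 0.565, 590-fold). Of 13 C-type lectin receptors 5 were at least 2-fold higher in M1 and 6 in M2, with Clec4e (Mincle) and Clec4n (Dectin-2), receptors for mycobacterial and fungal glycolipids and mannans, 130-fold and 39.7-fold higher in M1, and Clec7a (Dectin-1), the β-glucan receptor, 17.5-fold higher in M2 (13.6 and 238). Cd69 was above background on M1 only, at least 252-fold higher. Complement factors of the alternative and classical pathways, Cfb and C4b, were 50.1-fold and 18.7-fold higher in M1. The Fc receptor gene Fcgr1 was 5.62-fold higher in M1 and Fcrls 43.7-fold higher in M2.

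Prostanoid and iron genes included pairs of opposite direction, and the medians of both lists, 0.13 and 0.35, became −0.69 and −0.47 after the median shift, the latter also −0.02 under quantile normalization. Ptgs1, the constitutive cyclooxygenase, gave 0.141 on M1 and 37.9 on M2 (269-fold higher in M2), the reverse of Ptgs2. Tbxas1, thromboxane synthase, was 17.0-fold and Ephx1, an epoxide hydrolase, 74.6-fold higher in M2, with a log2 ratio of −2.98 for the other probe of Ephx1. Hpgd, which inactivates prostaglandins, was above background on M2 only. Tfrc, the transferrin receptor, gave 0.218 and 32.2 (148-fold higher in M2), and Trf, transferrin, 8.84 and 356 (40.3-fold). Hmox1, which degrades heme, was 8.77-fold higher in M1 (674 and 76.8). Slc40a1, the iron exporter ferroportin, had a log2 ratio of 0.63 that became −0.19 after the median shift. Of 26 antioxidant genes 8 were at least 2-fold higher in M1 and 5 in M2 (4 and 12 after the median shift), with a median of 0.02 that became −0.80 after the median shift and −0.18 under quantile normalization. Among them, Sod2 was 9.74-fold and Prdx6 6.89-fold higher in M1, and Cat, catalase, 3.70-fold and Gsto1 9.27-fold higher in M2. Of 45 lysosomal genes, 10 were at least 2-fold higher in M1 and 11 in M2 (4 and 14 after the median shift), and the median of 0.44 became −0.38, and −0.07 under quantile normalization. These shares were no larger than those of all genes. On the M1 side were Neu1 and Ctsh, with log2 ratios of 2.59 and 2.40, and on the M2 side Hexa at 9.04-fold and Acp5, the tartrate-resistant acid phosphatase, at 8.13-fold.

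Matrix genes as a list took no side. Col1a1, Col3a1 and Col6a1 were 14.0-fold, 10.2-fold and 24.5-fold higher in M2. Mmp12, macrophage elastase, gave 0.170 and 31.1 (183-fold), and Mmp9 was above background on M2 only. Plau, the urokinase gene, was 13.0-fold higher in M1. Of 32 matrix genes, 11 were at least 2-fold higher in M1 and 10 in M2 (7 and 13 after the median shift), against 25.1% and 25.3% of all genes (11.0% and 43.3%), and the median of 0.32 became −0.50. The fibroblast markers overlap with this list, and their summed signal was 16.4 on M1 and 43.7 on M2, with Col1a1, Col1a2 and Col3a1 higher in M2 and Dcn 5.86-fold higher in M1. Their part in the matrix ratios was not tested.

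Cell cycle genes were mostly lower in M1. Of 33 DNA replication and S-phase genes, 17 were at least 2-fold higher in M2 and 5 in M1, and of 24 mitosis genes 13 and 2, with medians of −1.10 and −1.24 (−1.93 and −2.06 after the median shift). Another 7 mitosis genes were above background on M2 only, including Ccna2 and Ccnb2, and 1, Cenpf, on M1 only. Tk1 gave 0.0924 and 3.56 (38.6-fold), Rrm2, of ribonucleotide reductase, 0.250 and 4.75 (19.0-fold), Mcm3 1.32 and 14.9 (11.3-fold), and Ccnb1, cyclin B1, 0.164 and 0.871 (5.30-fold), although another probe of Ccnb1 had a log2 ratio of −0.82. Pcna and Mki67, both proliferation markers, had log2 ratios of −0.05 and −0.55. The replication genes higher in M1 included Ccne1, Tyms, Cdt1 and Chaf1b, and Ccne1, cyclin E1, gave 79.9 and 2.87 (27.8-fold).

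Markers of other cells and reference genes were measured alongside. Each sum below adds the signals of different probes, so that bright probes weigh most and cell numbers are not measured. The summed signal of 10 neutrophil markers was 58.0 on M1 and 104 on M2. Elane gave 52.1 on M1 and 12.4 on M2 and thus most of the M1 sum, whereas S100a9 gave 1.38 and 65.3 (47.4-fold), S100a8 was 5.68-fold higher in M2, and Ltf and Ngp were above background on M2 only. For 9 T and NK cell markers the sums were 37.3 and 12.0, of which Cd4 gave 33.1 and 9.52 and Cd3e 3.59 and 2.13, and for 6 dendritic cell markers 233 and 96.9, nearly all from Siglech (232 and 96.7), another probe of which had a log2 ratio of 0.98. The sums for B cell and for eosinophil, basophil and mast cell markers stayed at or below 2.90 on both arrays, where Siglecf gave 0.108 and 2.63. The part of such cells in the ratios was not tested. Reference genes were not constant, since Actb and Ppia had log2 ratios of 0.36 and −0.16, Gapdh of 1.38, and Gusb of −3.60. Their median over 15 genes was −0.16, which became −0.98 after the median shift and −0.67 under quantile normalization. Actb turned to −0.46 after the median shift.

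**Figure D5:**
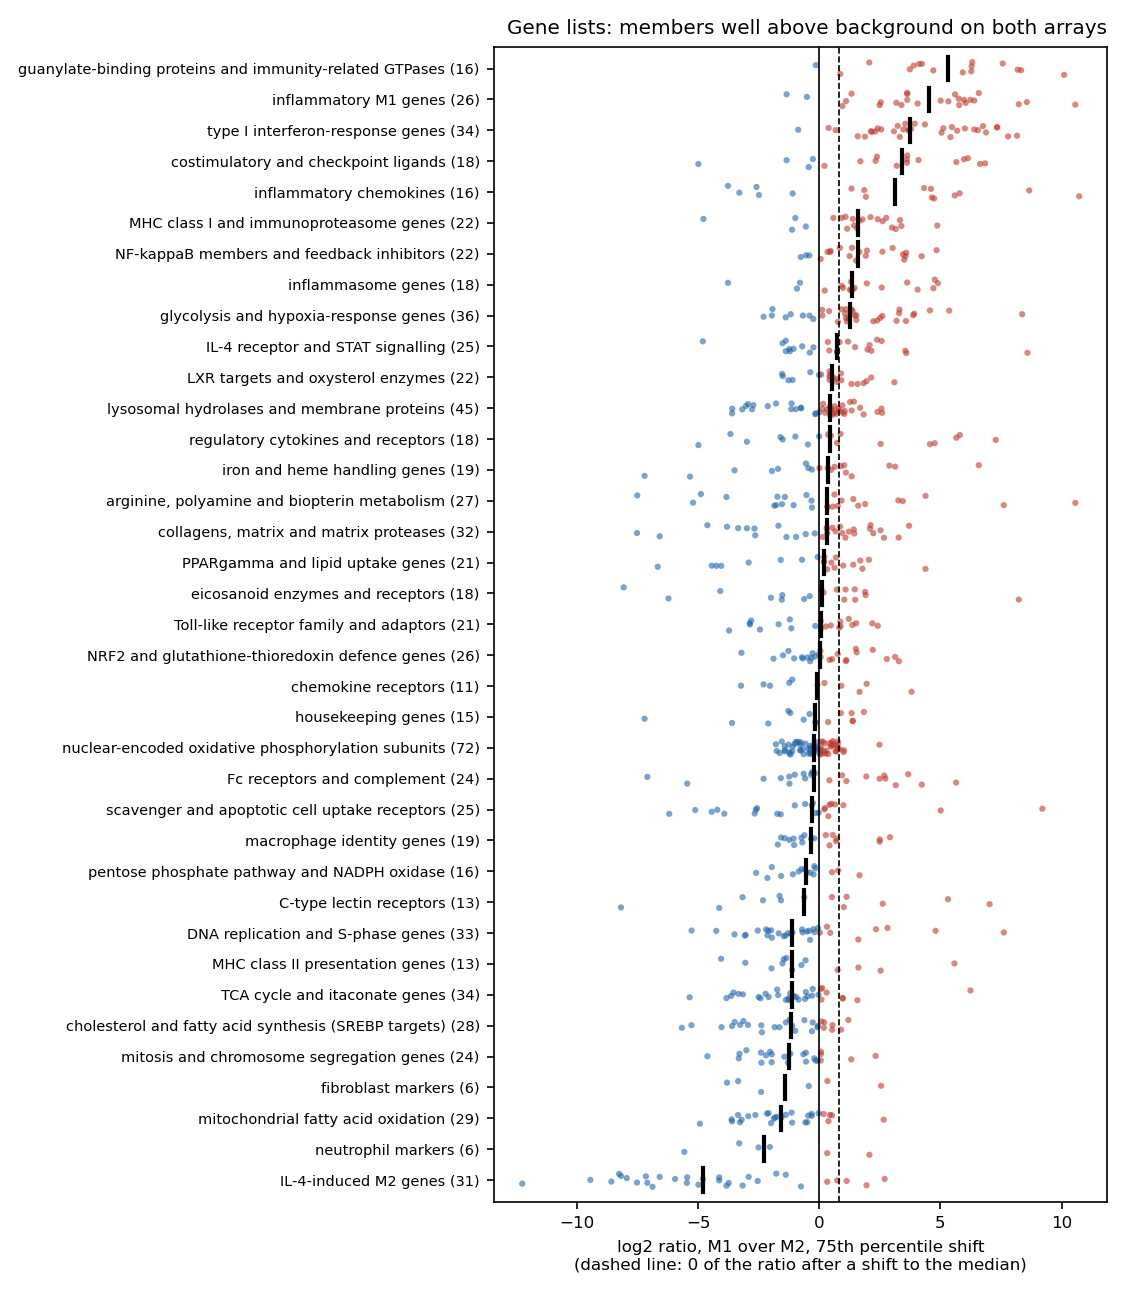
Log2 ratios of M1 over M2 (horizontal, 75th percentile shift) for the members of each gene list that were well above background on both arrays, 1 point per gene, with the list median as a black bar and the number of genes in parentheses. Lists with fewer than 6 such genes are not drawn. The solid line marks 0 under the 75th percentile shift and the dashed line 0 under the median shift, and medians between these lines change side with the shift.

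Among all named genes, the largest ratio for M1 belonged to Gm15056 (237 and 0.0757, 3136-fold), and after Cxcl9, Nos2 and Gbp11 came Ly6a, the surface protein Sca-1 (791 and 1.21, 654-fold), Tspoap1 (635-fold), Cd300lf, 9030619P08Rik (557-fold), Ifit3b (525-fold) and Csta2 (429-fold). Largest for M2 after Chil3 were Gm6522 (0.0850 and 221, 2593-fold), 4 genes of the eosinophil-associated ribonuclease family, Ear12, Ear10, Ear2 and Ear1 (1002-fold, 755-fold, 697-fold and 542-fold), the probe named ND3 (383-fold) and Rnase2a of the same ribonuclease family (382-fold). Members of the ribonuclease family are near copies of each other, and their probes may have measured the same transcripts. The Gm6522 probe (chr3:106100673-106100732 of mm9) lay on the same chromosome as those of Chil3 and Chil4. Whether it measured their transcripts was not tested. Large bounds for M1 besides Ifnb1 and the GTPases were those of Trim30c, Slfn4, Clic5 and Ifit1bl1 (at least 558-fold, 479-fold, 473-fold and 397-fold), and for M2 those of Ank, a pyrophosphate transporter, and Kctd12b (at least 223-fold and 108-fold). Outside named genes, 4742 of 16194 long intergenic noncoding RNA probes were well above background on both arrays, of which 2051 were at least 2-fold higher in M1 and 351 in M2. Under the median shift these counts were 742 and 781, so that the larger number in M1 was not kept. Among named genes on both arrays the shares higher in M1 and M2 were 25.1% and 25.3%, and 11.0% and 43.3% after the median shift.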

How the data were processed

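RNA of 4 BMDM cultures was hybridized to 4 single-colour Agilent arrays, and the wild-type M1 and M2 arrays were compared. The authors deposited intensities per spot from Feature Extraction, and the processed signal used here is background-subtracted and detrended within each array but not normalized between arrays. The file headers name version 10.7.3.1 of that software and the labels version 10.5.1.1. The deposited series table held the same intensities to within 0.497%. The methods of the study apply a threshold of 1.0 and a percentile shift to the 75th percentile.

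Control spots and spots marked as outliers (226 on M1, 170 on M2) were left out, no spot was saturated, and spots of a probe were averaged. Values were divided by the 75th percentile of the array and set on the log2 scale. Of 55681 probes, 30843 carried a gene name, for 23131 genes, and 16882 genes had 1 probe. For the others the probe with the highest mean over 4 arrays was used, and 131 genes had probes at least 2-fold apart in both directions. Names matched a RefSeq table for 21714 genes (93.9%), and 1417 names of the array were kept. Some listed genes therefore appear under newer symbols. The array annotation gave probe positions on mm9. Promoters are RefSeq's on GRCm38.p6, which was not mixed with mm9.

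A gene was called where it was well above background on both arrays and at least 2-fold apart. Members and gene lists were chosen with earlier results of these data known. Some genes stand in several lists. The genes named are core members of each list, the further members with the largest ratios or bounds (up to 5 a list) and the 10 largest ratios and bounds each way. Some named genes are not reported here. Members that went against their list, and genes listed without a value, were named after their values were seen. Precision is limited by 1 array a condition, and no p-value is given. Alternatives were the median shift, quantile normalization, a percentile over detected probes, normexp background correction with an offset of 50, other filters, outlier spots kept, other rules for several probes, a 3-fold threshold and the series table. The procedure was tested on simulated data, which checks the code and says nothing of the variation between cultures. Calculations used Python 3.11.15, NumPy 2.4.6, pandas 2.3.3 and matplotlib 3.10.9, and R 4.3.3 with limma 3.58.1.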

Additional observations from a re-analysis of the deposited data

How the results depend on the processing

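The number of genes at least 2-fold higher in M1 (3321) became 1461 after the median shift, 7065 with no filter on dim probes and 1829 at a 3-fold threshold. The number higher in M2 (3356) became 5746 after the median shift and 2182 at 3-fold, and the share higher in M1 (49.7%) became 20.3% after the median shift and 61.3% with no filter. Quantile normalization gave 2666 and 3645 genes (42.2%) and normexp 2730 and 3056. Of 229 named genes called 2-fold, 0 changed direction, which the median shift could not bring about because it moves every gene by less than 2-fold. Many named genes were also chosen for their large ratios, which left little room for a reversal under the other settings. Sizes moved, since 254 of 297 list medians and named-gene ratios shifted by more than the technical SD under normexp and 213 under quantile normalization. The cause of these differences was not tested. Lists with medians between 0 and 0.82 changed side with the median shift. No paired analysis was possible because each group has only replicate 1. Leaving out a replicate was not possible with 1 array a group. Signal over background limits the 1160 and 1374 genes measured on 1 array to bounds.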
